A study of Mus musculus with 6 samples.

Results

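The genes examined here are 10 protein genes of the mouse mitochondrial genome (mtDNA), namely mt-Nd1, mt-Nd2, mt-Nd3, mt-Nd4, mt-Nd5, mt-Cytb, mt-Co1, mt-Co2, mt-Co3 and mt-Atp6. They were taken by symbol from a raw count table of 32285 rows, and all 10 were found and passed the filter on low counts. The libraries were made from Tregs sorted as CD4+CD25+ cells from the spleens of C57BL/6 mice, with 3 WT and 3 KO libraries. KO mice carried ERCre, a Cre recombinase that enters the nucleus once tamoxifen is given, together with Zfp335fl/fl alleles. The sample labels call the WT animals littermates of the wild type and do not mention tamoxifen, whereas the methods of the study describe ERCre controls given tamoxifen. According to those methods, mice of 6 weeks received 3 injections of 0.1 mL tamoxifen at 10 mg/mL and were killed on day 7. ERCre is not restricted to Tregs, so other cells of a KO animal can lose Zfp335 as well.

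Zfp335, a zinc finger transcription factor and the targeted gene, was measured at 124.4, 120.7 and 115.2 CPM (counts divided by the TMM-adjusted library size, as edgeR's cpm function gives them) in WT replicates 1, 2 and 3 and at 15.0, 14.3 and 15.1 CPM in KO replicates 1, 2 and 3, a log2 fold change of -3.02 (SE 0.05, adjusted p = 1.2e-13, edgeR). Library totals lay between 133283969 and 209041812 counts, and WT replicate 3 was the smallest library. Of 17307 genes tested, 24.1% were called at an adjusted p under 0.05, 2082 higher and 2088 lower in KO. Scaling by library size alone gave 1622 higher and 2575 lower. Foxp3, the lineage factor of Tregs, was at 1046 to 1154 CPM in the 6 libraries. B cell markers were called lower in KO for 4 of 4 genes (summed level 38.5 to 42.4 CPM in WT, 19.1 to 20.8 CPM in KO), neutrophil and myeloid markers for 5 of 6 (43.03 to 51.003 against 20.3 to 22.1 CPM) and red cell precursor markers for 5 of 5 (36.5 to 43.4 against 1.81 to 2.31 CPM), with none of these genes at 0 in any library. The remaining myeloid marker, Csf1r, went the other way without a call (0.22, adjusted p = 0.0821, edgeR). It was at 9.26, 9.51 and 7.63 CPM in WT and at 10.3, 9.74 and 10.9 CPM in KO. CD8 T cell markers (2 genes) and NK cell markers (3 genes) held 0 calls. Of 7 T cell and Treg markers, Ctla4 was higher in KO, Cd3g, Il2ra and Foxp3 were lower, with Foxp3 at -0.11, and the summed level was 3677 to 3753 CPM in WT and 3742 to 3808 CPM in KO. The part of these other cells in the values below was not tested.

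Mammalian mitochondria keep a small circular genome whose protein genes all encode core subunits of the oxidative phosphorylation system. Complex I passes electrons from NADH to ubiquinone, complex III from ubiquinol to cytochrome c and complex IV to oxygen, and ATP synthase uses the resulting proton gradient. Most subunits of these complexes are encoded in the nucleus, and so are all proteins that copy, transcribe and translate mtDNA. The genes of each mtDNA strand are transcribed as long precursors from which tRNAs are cut out, so that neighbouring messages start from shared transcripts and their levels are also set by processing and decay. Tregs are known to rely on oxidative phosphorylation more than other activated T cells do.

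The 10 genes comprised 5 subunits of complex I, 1 of complex III, 3 of complex IV and 1 of ATP synthase. In GRCm38, the build called mm10 in the submitters' processing notes, all 10 lie on the plus strand of chrM, from mt-Nd1 at chrM:2751-3707 to mt-Cytb at chrM:14145-15288, and each is a single exon without introns. Neighbouring protein genes overlap at 4 places. The overlap of mt-Atp6 with mt-Co3 is 1 base, and mt-Nd5 overlaps mt-Nd6, which lies on the minus strand, by 14 bases. The other 2 join genes that are read from a shared message and are shown here with the start codon of the downstream gene and the stop codon of the upstream gene in capitals. The overlap of mt-Atp8 and mt-Atp6 at chrM:7927-7969 has 43 bases, and how reads that reach into it were counted is not known:
mt-Atp8 and mt-Atp6: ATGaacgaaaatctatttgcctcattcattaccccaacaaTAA
The overlap of mt-Nd4l and mt-Nd4 at chrM:10167-10173 has 7 bases, all printed in capitals, including the base between the codons. They begin with the start codon of mt-Nd4 (ATG) and end with the stop codon of mt-Nd4l (TAA):
mt-Nd4l and mt-Nd4: ATGCTAA

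The ends of the genes show how these messages depend on processing. For mt-Nd4, mt-Co3 and mt-Cytb the genome holds only the first base of the stop codon, and the remaining bases come from the poly(A) tail that is added to the message. The last 24 bases of these genes, and of mt-Co1 and mt-Nd1 with complete stop codons for comparison, are given with the stop bases in capitals.
mt-Nd4: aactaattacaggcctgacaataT
mt-Co3: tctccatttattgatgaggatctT
mt-Cytb: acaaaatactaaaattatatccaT
mt-Co1: ccaacctatgtaaaagtaaaaTAA
mt-Nd1: gcgggagtaccaccatacataTAG
The mitochondrial code reads TGA as tryptophan rather than as a stop, and mt-Co1 holds 17 such inner codons among 514, mt-Co3 12 among 261 and mt-Nd4 12 among 459.

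Nuclear copies of mtDNA limit what the counts can say about several of the genes. Every 50-base stretch of each gene was searched in annotated nuclear transcripts of GRCm38. All stretches of mt-Co2 were shared, and the share was 99.9% for mt-Co3, 99.5% for mt-Atp6, 98.0% for mt-Nd3, 62.2% for mt-Nd4, 51.1% for mt-Co1, 8.19% for mt-Nd2 and 7.61% for mt-Nd5. No stretch of mt-Nd1 or mt-Cytb was shared. The genes with the highest shares match a run of pseudogenes on the minus strand of chr1, such as Gm28661 for mt-Co2 (chr1:24614885-24615565, 0 differences in 681 bases), Gm10925 for mt-Atp6 (0 in 678 bases) and Gm28437 for mt-Co3 (0 in 783 bases). For mt-Nd3 the copy is Gm28438 (chr1:24612775-24613119), which differs in 1 of 345 bases, T3C counted from 1 at the first base of mt-Nd3. The first 60 bases of both show how little separates them, with the differing base in capitals.
mt-Nd3: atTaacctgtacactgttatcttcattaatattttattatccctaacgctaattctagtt
Gm28438: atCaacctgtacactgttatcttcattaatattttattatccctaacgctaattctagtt
Of 13 annotated copies that share a stretch with 1 of the 10 genes, 0 have a row in the count table, and how reads matching both places were counted is not given for these libraries in the sources used here. For other bulk libraries, from Foxp3Cre mice, the methods of the study describe HISAT2 set to report 1 alignment per read and expression values from StringTie. Levels of mt-Nd1 and mt-Cytb do not carry this limit as far as annotated transcripts go, whereas those of mt-Co2, mt-Co3, mt-Atp6 and mt-Nd3 carry it in full.

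Per kilobase of gene, the 10 levels spanned a wide range although the genes lie on the same strand. In WT, mt-Co1, the catalytic core of complex IV, was highest at 6061 ± 536 CPM per kb (SD, n = 3 libraries). The genes mt-Atp6 at 2775 ± 574, mt-Co2 at 2397 ± 397 and mt-Cytb at 2353 ± 119 CPM per kb followed, and each differed from the next in this order by less than the larger SD of the pair. Then came mt-Co3 at 1835 ± 340 CPM per kb, mt-Nd1 at 1333 ± 151 and mt-Nd4 at 1109 ± 179, each apart from its neighbours by more than the SD of either. The levels per kb of mt-Nd2 (881 ± 83.1) and mt-Nd5 (878 ± 59.7) could not be told apart. Lowest was mt-Nd3, a small membrane subunit of complex I, at 147 ± 33.9 CPM per kb. In KO the order per kb was the same except that mt-Cytb (2230 ± 93.5) stood above mt-Co2 (2072 ± 82.9). Comparisons of level between genes also rest on the shared sequence described above, which was nearly complete both for mt-Nd3, the lowest, and for mt-Co2 and mt-Atp6, which were among the highest.

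**Figure D1:**
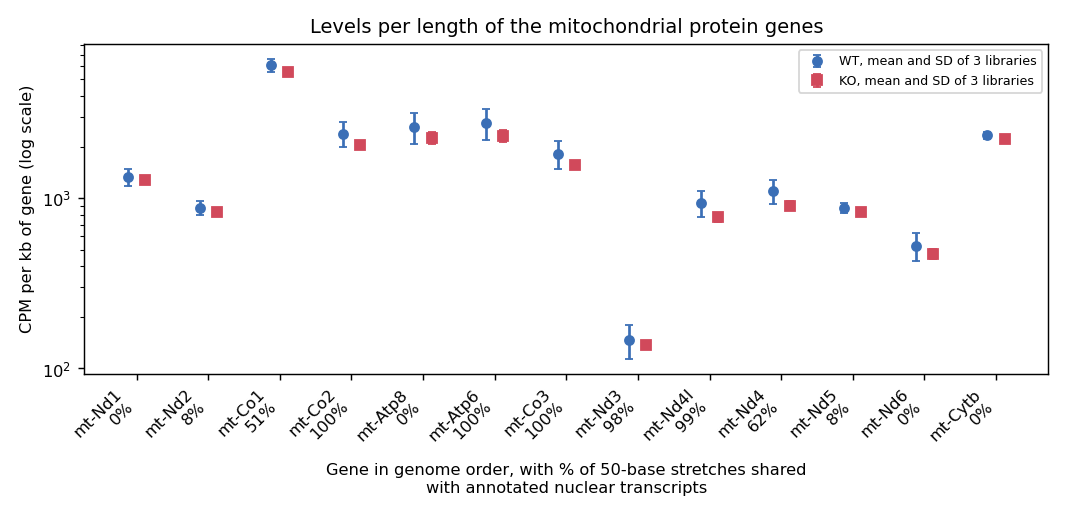
Level per kilobase of gene (CPM per kb, log scale) of the 13 mtDNA protein genes in genome order, as mean and SD of 3 WT (circles) and 3 KO (squares) libraries, with the percent of 50-base stretches shared with annotated nuclear transcripts under each name. mt-Co1 stands highest at 6061 CPM per kb in WT and mt-Nd3 lowest at 147, and KO means lie close to WT means for every gene.

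The nuclear partners of these proteins were measured at lower levels per kb. Their length is that of all annotated exons of a gene joined, which exceeds a single message for many of them and lowers the value, whereas an mtDNA gene has its own length. The median over nuclear subunits in WT was 22.7 CPM per kb for 36 genes of complex I, 47.4 for 9 genes of complex III, 49.9 for 11 genes of complex IV and 43.2 for 15 genes of ATP synthase.

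To compare the 10 genes between WT and KO, the CPM of each library are given first, by complex. Among the subunits of complex I, mt-Nd1, which forms part of the ubiquinone binding site, was at 1127, 1284 and 1416 CPM in WT replicates 1, 2 and 3 and at 1251, 1197 and 1256 CPM in KO replicates 1, 2 and 3. All 3 KO libraries lay inside the WT range. For mt-Nd2, an antiporter-like subunit of the proton-pumping membrane arm, the levels were 833.1, 904.3 and 1005 CPM in WT and 862.3, 825.3 and 907.9 CPM in KO. KO replicate 2 lay just below the lowest WT library and the other KO libraries within the WT range. For mt-Nd3 the levels were 39.2, 51.9 and 62.8 CPM in WT and 46.2, 46.8 and 49.7 CPM in KO, with the KO libraries again inside the WT range. For mt-Nd4, another antiporter-like subunit, 1284, 1522 and 1777 CPM were measured in WT and 1272, 1162 and 1308 CPM in KO. Here WT replicate 1 stood beside the KO libraries and WT replicates 2 and 3 above them. For mt-Nd5, the antiporter-like subunit at the far end of the arm, the values were 1494, 1596 and 1712 CPM in WT and 1513, 1471 and 1566 CPM in KO, which overlapped as well.

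In complex III, mt-Cytb, the subunit with both quinone sites, was at 2582, 2650 and 2843 CPM in WT and at 2524, 2460 and 2669 CPM in KO, and only KO replicate 3 reached into the WT range. In complex IV, mt-Co1 was at 8665, 9149 and 10280 CPM in WT and at 8530, 8177 and 9094 CPM in KO, with the same arrangement. For mt-Co2, which carries the copper site that accepts electrons from cytochrome c, the levels were 1353, 1671 and 1894 CPM in WT and 1402, 1369 and 1480 CPM in KO. For mt-Co3, the third core subunit, they were 1172, 1440 and 1705 CPM in WT and 1236, 1178 and 1301 CPM in KO. For both genes WT replicate 1 was the lowest of all 6 libraries. In ATP synthase, mt-Atp6, which forms the proton channel beside the rotor ring, was at 1520, 1852 and 2298 CPM in WT and at 1568, 1478 and 1718 CPM in KO, with KO replicate 2 lowest and WT replicate 3 highest.

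**Figure D2:**
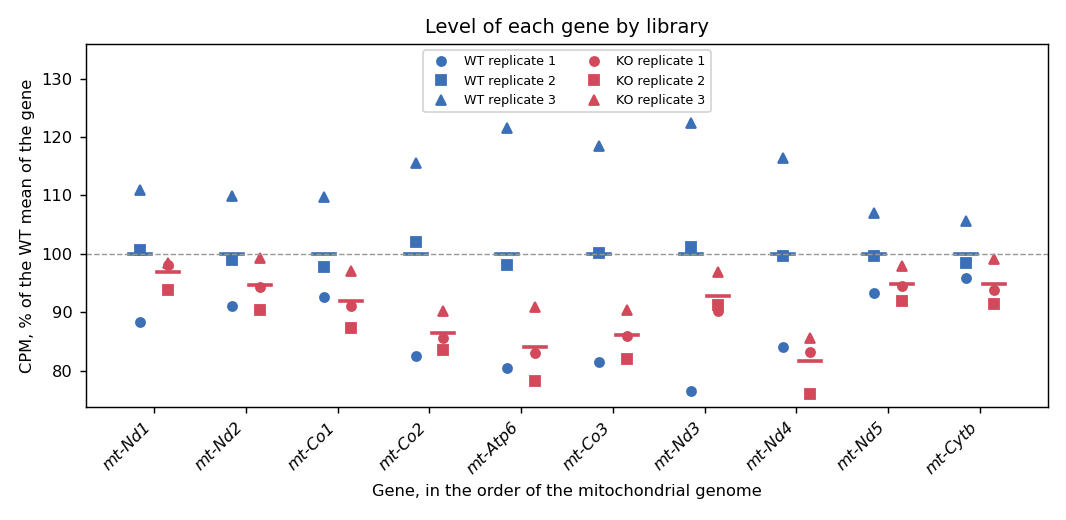
CPM of each of the 10 genes in each library, as a percent of the gene's WT mean, in genome order; short bars mark group means of 3 libraries and marker shapes the replicate numbers. WT replicate 1 is the lowest and WT replicate 3 the highest WT library for all 10 genes, and the KO libraries lie close together, overlapping the WT libraries for every gene.

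No gene of the 10 passed the test, and for none did the WT and KO libraries separate without overlap, where 38.3% of all genes tested separated in this way. Against the 24.1% of all genes called, 0 of 10 were called by edgeR, and 0 of 10 had an unadjusted p under 0.05, which 34.7% of all genes had. DESeq2 called 0 (2 with an unadjusted p under 0.05), limma-voom called 0 (1 with an unadjusted p under 0.05) and the legacy method of edgeR called 0 (0 with an unadjusted p under 0.05). All 10 log2 fold changes were below 0, with a median of -0.11, beside a median of -0.0042 over all genes and 50.8% of all genes below 0. By the cutoffs of the study (1.5-fold, P under 0.05 and adjusted P under 0.1), 0 of 10 were called, where 6.95% of all genes were. The 10 values are not independent, since the genes share precursors, libraries and scaling.

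The sizes of the differences and their intervals varied by gene. The value furthest below 0 was that of mt-Nd4 at -0.29 on the log2 scale (SE 0.13, 95% interval -0.65 to 0.06, adjusted p = 0.211). Next were mt-Atp6 at -0.25 (SE 0.18, -0.73 to 0.23, adjusted p = 0.405), mt-Co3 at -0.22 (SE 0.15, adjusted p = 0.405) and mt-Co2 at -0.21 (SE 0.13, adjusted p = 0.355). The most narrow intervals belonged to mt-Cytb at -0.08 (SE 0.04, -0.17 to 0.01, adjusted p = 0.214) and mt-Nd5 at -0.08 (SE 0.05, -0.18 to 0.02, adjusted p = 0.248), whose lower bounds correspond to differences of -11.0% and -11.4%. The smallest adjusted p was that of mt-Co1, at -0.12 (SE 0.06, -0.26 to 0.01, adjusted p = 0.175). The values were -0.10 (SE 0.18, adjusted p = 0.767) for mt-Nd3, -0.08 (SE 0.06, adjusted p = 0.426) for mt-Nd2 and -0.05 (SE 0.07, adjusted p = 0.715) for mt-Nd1. For mt-Nd3 the interval ran from -0.59 to 0.39, so that neither a lower nor a higher level of that size can be told from none.

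The absence of calls depended on WT replicate 1. It was the lowest WT library for all 10 genes, so leaving it out necessarily raised every WT mean. The SE fell as well, from 0.134 to 0.055 for mt-Co2 and from 0.074 to 0.037 for mt-Nd1. Of the 10 genes only mt-Co1 had a larger SE, 0.064 against 0.060. The direction was thus set in advance, and the calls below are no separate test of the difference. Without that library, 6 of the 10 genes were called lower in KO, where 28.2% of all genes were called: mt-Co2 at -0.33 (adjusted p = 0.00369), mt-Nd5 at -0.13 (adjusted p = 0.0112), mt-Nd1 at -0.13 (adjusted p = 0.0169), mt-Nd3 at -0.26 (adjusted p = 0.0355), mt-Cytb at -0.11 (adjusted p = 0.0398) and mt-Nd4 at -0.40 (adjusted p = 0.0494). The other 4 were not called, and mt-Atp6 had a value of -0.39 with an adjusted p of 0.148. Without WT replicate 3 the values drew toward 0, none of the 10 was called and 8 of 10 stayed below 0, with mt-Nd1 at 0.04 and mt-Nd3 at 0.06.

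**Figure D3:**
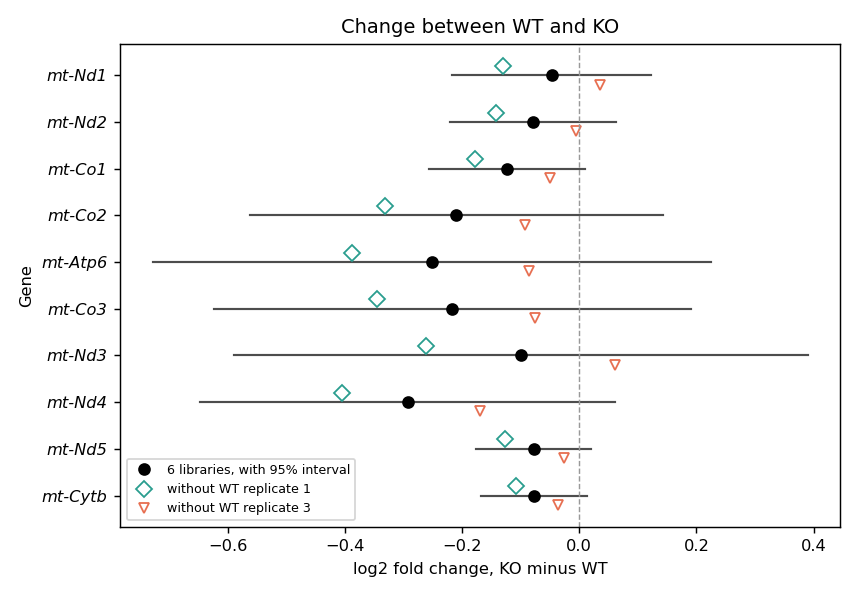
Log2 fold change (KO minus WT) of each gene from 6 libraries with its 95% interval (filled circles and lines), and the value without WT replicate 1 (diamonds) and without WT replicate 3 (triangles). All 10 intervals span 0, and the value of mt-Nd4 moves from -0.29 to -0.40 without WT replicate 1 and to -0.17 without WT replicate 3.

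The WT libraries stood in the same order for each of these genes. WT replicate 1 was lowest and WT replicate 3 highest for 10 of 10 genes, an order found in 23.7% of all genes tested and in 29% of the 5740 genes whose mean log2 CPM reached 5. The SD in WT exceeded that in KO for 10 of 10 genes, against 65.1% of all genes and 73.6% of those highly expressed genes. The coefficient of variation (CV) in WT had a median of 13.7% over the 10 genes, beside 3.70% over the highly expressed genes. It was lowest for mt-Cytb at 5.04% and mt-Nd5 at 6.80%, was 8.85% for mt-Co1, 9.44% for mt-Nd2 and 11.3% for mt-Nd1, and was higher in mt-Nd4 (16.2%), mt-Co2 (16.6%), mt-Co3 (18.5%), mt-Atp6 (20.7%) and mt-Nd3 (23.0%). The 5 genes with the widest WT spread were those with the highest shares of stretches found in nuclear transcripts, and mt-Atp8 and mt-Nd6, with 0% shared, had WT CVs of 20.5% and 19.0%. For mt-Atp8 this 0% covers annotated transcripts only, since no transcript is annotated between the chr1 copies of mt-Atp6 and mt-Co2. Among KO libraries the CV lay between 2.65% and 7.63%. WT replicate 3, with the highest levels, was also the smallest library, and what part the depth had was not tested.

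Summed, the 10 genes took 2.02%, 2.24% and 2.52% of all counts in WT replicates 1, 2 and 3 and 1.99%, 1.92% and 2.11% in KO replicates 1, 2 and 3. The means were 2.26 ± 0.25% in WT and 2.01 ± 0.10% in KO (SD, n = 3 libraries), a difference of -0.25 percentage points, about as large as the SD in WT. WT replicate 1 lay among the KO libraries, and the difference was -0.37 points without it and -0.12 points without WT replicate 3. Leaving haemoglobin and immunoglobulin genes, which took 0.123% of counts in WT and 0.0775% in KO, out of the total gave 2.27% and 2.01%. In bulk samples, fewer cells of a type and less RNA of these genes per cell cannot be told apart. Neither the number of mitochondria nor of mtDNA copies was measured in these libraries. By other assays of resting Tregs from ERCre and ERCre Zfp335fl/fl mice, activated in culture, the study reported lower mitochondrial mass and membrane potential without Zfp335. It also reported more mitochondrial ROS and a lower oxygen consumption rate there. Those assays measured activated cells and not RNA.

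Each gene was also taken as a share of the 10 together, which does not depend on how libraries are scaled. On this measure, 3 of the 10 genes separated WT from KO without overlap, where 28.3% of all genes did so when set against the same sum. Most of all genes lie outside that sum, so their ratios carry its spread between libraries, unlike a part of it. The percentages of all genes given for this measure are therefore no exact counterpart. The share of mt-Nd1 was higher in KO, at 6.19%, 6.18% and 5.88% against 5.62%, 5.80% and 5.66% in WT. The share of mt-Nd2 was higher too, at 4.27%, 4.26% and 4.25% in KO against 4.15%, 4.09% and 4.02% in WT. For mt-Nd4 it was lower, at 6.30%, 6.00% and 6.13% in KO against 6.40%, 6.88% and 7.11% in WT. Each of these reached p = 0.1 in a two-sided exact permutation test, the smallest p that 3 against 3 libraries allow, and 0.333 after adjustment over the 10 genes. With the geometric mean of the 10 genes as the base, mt-Nd1 and mt-Nd4 separated and mt-Nd2 did not, beside 23.6% of all genes. Without WT replicate 1, 9 of the 10 shares separated, beside 54.6% of all genes. The largest share, that of mt-Co1, was 41.9 ± 1.12% in WT and 42.3 ± 0.22% in KO, and overlapped.

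**Figure D4:**
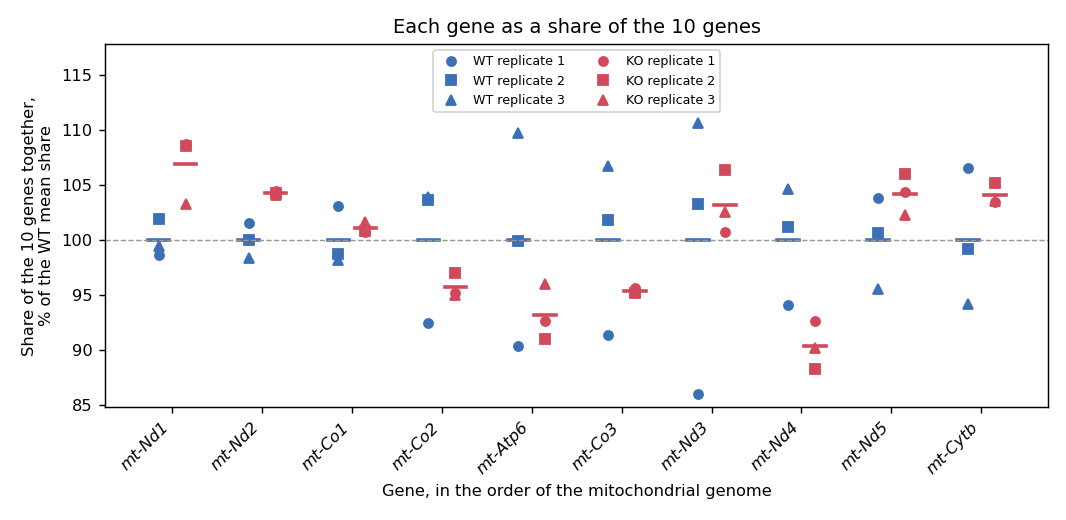
Each gene's count as a share of the counts of the 10 genes together, given as a percent of the mean WT share, by library; short bars mark group means of 3 libraries. mt-Nd1 and mt-Nd2 lie higher in all 3 KO libraries than in any WT library, mt-Nd4 lies lower, and the other 7 genes overlap. Set against the same sum, 28.3% of all genes separated without overlap.

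Single genes were also set against each other within a library, in 9 ratios chosen after the values were seen. The count of mt-Nd4 over that of mt-Nd1 was 1.14, 1.19 and 1.26 in WT and 1.02, 0.971 and 1.04 in KO (p = 0.1, exact permutation test). Over mt-Nd5, its downstream neighbour, it was 0.859, 0.954 and 1.04 in WT and 0.841, 0.790 and 0.836 in KO (p = 0.1, exact permutation test). Both reached the smallest p possible, and 0.45 after adjustment over the 9 ratios. The pairs that share a message kept close ratios in all libraries, and some other pairs did so in KO. The ratio of mt-Nd4l to mt-Nd4, which overlap by the 7 bases printed above, was 0.183 ± 0.0018 in WT and 0.184 ± 0.0039 in KO (p = 0.6, exact permutation test). For mt-Atp8 over mt-Atp6 it was 0.284 ± 0.0048 in WT and 0.291 ± 0.0029 in KO (p = 0.2, exact permutation test). These 2 ratios varied between WT libraries by far less than the genes themselves. The remaining ratios had p from 0.2 to 0.7 (exact permutation test). For mt-Co3 over mt-Co1 it was 0.153 ± 0.016 in WT and 0.144 ± 0.0009 in KO. For mt-Co2 over mt-Co1 it was 0.174 ± 0.016 and 0.165 ± 0.0024, and for mt-Nd1 over mt-Co1 0.136 ± 0.0053 and 0.144 ± 0.0049. For mt-Atp6 over mt-Cytb it was 0.699 ± 0.110 and 0.622 ± 0.021, and for mt-Nd6 over mt-Nd5 0.1695 ± 0.021 and 0.162 ± 0.0057.

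The other 3 mtDNA protein genes in the table gave values on the same side and were not called. They were mt-Nd4l at -0.28 (SE 0.14, adjusted p = 0.247), a small membrane subunit of complex I, mt-Atp8 at -0.21 (SE 0.18, adjusted p = 0.489), an accessory subunit of ATP synthase, and mt-Nd6 at -0.15 (SE 0.16, adjusted p = 0.591), the only protein gene on the minus strand. Without WT replicate 1, mt-Nd4l was called at -0.40 (adjusted p = 0.0457). mt-Nd6 was at 222.4, 270.0 and 326.2 CPM in WT, so the order of the WT libraries also held on that strand, and at 247.5, 228.9 and 261.0 CPM in KO. Whether the counting used strand is not given in the sources used here, so reads of mt-Nd6 and of RNA from the opposite strand cannot be told apart. The mitochondrial rRNAs and tRNAs were not analysed here.

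Among 11065 nuclear candidates, the genes whose centred log2 CPM over the 6 libraries came closest to the mean of the 10 were Sf3b6, a component of the spliceosome, with a root mean square difference of 0.023, Gm28901 with 0.024 and Ccar1 with 0.025. The median candidate differed by 0.163, and the 10 genes themselves by 0.044 (mt-Co2) to 0.091 (mt-Nd3).

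The nuclear partners were taken as 12 lists with 188 genes, all of which were tested. Of these, 12 were called higher and 18 lower in KO, 16.0% in all against 24.1% of all genes, with a median log2 fold change of -0.02. Scaling by library size alone gave 8 higher and 30 lower. The count moved from 30 to 57 of the 188 without WT replicate 1, where 28.2% of all genes were called. In that setting the share of partners called was not below that of all genes. The count moved to 17 without WT replicate 2, KO replicate 1 or KO replicate 2, and to 19 without KO replicate 3. Calls with an adjusted p near the threshold are therefore those of this set of libraries.

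Of 9 genes for transcription of mtDNA, 1 was called higher and 2 lower, with a median of -0.08. The share called was 33.3%, beside 24.1% of all genes. Polrmt, the mitochondrial RNA polymerase, was at 73.4, 68.4 and 72.6 CPM in WT and at 72.0, 67.3 and 67.8 CPM in KO, a value of -0.05 (SE 0.04, adjusted p = 0.443). With the trend on GC content removed it was called at -0.10 (adjusted p = 0.0487). Tfam, which bends the promoter and packages mtDNA, had a value of -0.03 (SE 0.04, adjusted p = 0.618). Tfb2m, which opens the promoter with Polrmt, rose from 27.8, 24.7 and 26.0 CPM in WT to 30.7, 29.3 and 32.1 CPM in KO, by 0.23 (SE 0.06, adjusted p = 0.00844). That call was lost without WT replicate 2 (0.19, adjusted p = 0.0604) and without KO replicate 3 (0.20, adjusted p = 0.0513). Tefm, the elongation factor, fell from 3.41, 3.64 and 2.76 CPM to 2.73, 2.50 and 2.17 CPM (-0.43, SE 0.13, adjusted p = 0.0309), at a low level. Mterf4, which acts in assembly of the mitochondrial ribosome, fell by 0.26 on the log2 scale (SE 0.09, adjusted p = 0.0422).

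Upkeep of mtDNA (13 genes) held 2 higher and 1 lower, with a median of 0.03. The share called, 23.1%, was close to the 24.1% of all genes. Polg2, the accessory subunit of the mtDNA polymerase, rose from 16.0, 16.7 and 14.5 CPM in WT to 21.3, 20.97 and 23.0 CPM in KO, by 0.46 (SE 0.06, adjusted p = 0.000152). Tk2, the mitochondrial thymidine kinase, rose by 0.17 (adjusted p = 0.0318), and Rrm2b, a ribonucleotide reductase subunit used outside S phase, fell by 0.28 on the log2 scale (adjusted p = 0.0149). Of 19 genes that process or degrade mtDNA transcripts, 1 was higher and 3 were lower, with a median of -0.01. Here the share called was 21.1%, again close to that of all genes. Fastkd5, which is needed to mature precursors whose ends are not set by a tRNA, fell from 9.19, 9.19 and 9.66 CPM to 6.18, 6.36 and 6.62 CPM (-0.55, SE 0.07, adjusted p = 9.2e-05). Its relative Fastkd3 fell by 0.38 on the log2 scale (adjusted p = 0.000339) and Pnpt1, the exonuclease that degrades mitochondrial RNA, by 0.20 (adjusted p = 0.00734).

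Genes of mitochondrial translation held few calls, 14.3% of the translation factors and 5.88% of the aminoacyl-tRNA synthetases, beside 24.1% of all genes. Among 14 translation factors 2 were lower, Mtif3, an initiation factor, at -0.27 (adjusted p = 0.00539) and Tufm, the elongation factor Tu, at -0.15 (adjusted p = 0.0188), while Mtrf1l, a release factor, had a value of -0.18 (adjusted p = 0.0815). Among 17 mitochondrial aminoacyl-tRNA synthetases, Pars2, which charges the proline tRNA, was lower at -0.30 (adjusted p = 0.0344), and Rars2 and Mars2 had values of -0.15 and -0.13 (adjusted p = 0.0928 for each). Insertion and assembly of the subunits (25 genes) held 2 higher and 2 lower, 16.0% called beside 24.1% of all genes. Tmem126b, an assembly factor of the complex I membrane arm, fell from 8.69, 8.57 and 9.98 CPM to 5.61, 5.59 and 5.94 CPM (-0.66, SE 0.08, adjusted p = 6.3e-05). Cox11, which delivers copper to the mt-Co1 protein, rose by 0.44 (adjusted p = 0.000896), and Cox17, a copper chaperone of complex IV, rose by 0.21 (adjusted p = 0.0063).

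For the nuclear subunits, the share called was 13.9% in complex I and 27.3% in complex IV, beside 24.1% of all genes. Complex I (36 genes) held 2 higher and 3 lower, among them Ndufb6 at 0.22 (adjusted p = 0.016), Ndufv2 at -0.17 (adjusted p = 0.0278) and Ndufa9 at -0.13 (adjusted p = 0.0357). Complex III (9 genes) held 0 calls, with 1 unadjusted p under 0.05, where 34.7% of all genes had such a p. The smallest p there was that of Cyc1, cytochrome c1, with a value of 0.14 (adjusted p = 0.0645), followed by Uqcrc1 at -0.06 and Uqcrh at 0.05. Complex IV (11 genes) held 2 higher, Cox6c at 0.21 (adjusted p = 0.00383) and Cox5b at 0.12 (adjusted p = 0.0368), and 1 lower. That gene was Ndufa4, which fell from 40.0, 46.7 and 43.7 CPM to 27.3, 27.2 and 26.3 CPM (-0.69, SE 0.06, adjusted p = 1.4e-06). Of the genes that the study chose in other libraries and then examined in these, the lists of subunits hold Ndufa4 and Atp5l. The study reported both as downregulated in Tregs of ERCre Zfp335fl/fl mice given tamoxifen, and also in those of heterozygous Foxp3Cre/+ Zfp335fl/fl mice. Here Atp5l, a subunit of ATP synthase, had a value of -0.07 (SE 0.06, adjusted p = 0.458) and was not called. Atp5l is named because the study chose it and not by its p. ATP synthase (15 genes) held 0 calls. Of its 15 genes, 5 had an unadjusted p under 0.05, again beside 34.7% of all genes. The smallest p values were those of Atp5f1 at -0.13 (adjusted p = 0.0575), Atp5j2 at -0.14 (adjusted p = 0.0892) and Atp5o at -0.10 (adjusted p = 0.0907).

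Of the regulators of mitochondrial biogenesis (9 genes), 22.2% were called, close to the 24.1% of all genes. The 1 gene called higher was Ppargc1b, a coactivator of the PGC-1 family, at 0.25 (adjusted p = 0.00654). The 1 called lower was Myc at -0.18 (adjusted p = 0.00333), while Esrra, a nuclear receptor, had a value of -0.10 (adjusted p = 0.104). Among 11 abundant mitochondrial proteins often used as a measure of content, 1 was higher and 2 lower, 27.3% called and also close to all genes. Cs, citrate synthase of the TCA cycle, fell from 198.6, 192.2 and 196.2 CPM to 147.5, 145.3 and 141.0 CPM (-0.44, SE 0.03, adjusted p = 7.3e-07). Vdac2, a channel of the outer membrane, fell by 0.23 on the log2 scale (adjusted p = 0.00108), and Timm23, a pore of the inner membrane import machinery, rose by 0.13 (adjusted p = 0.0371). The list as a whole had a median of -0.05.

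**Figure D5:**
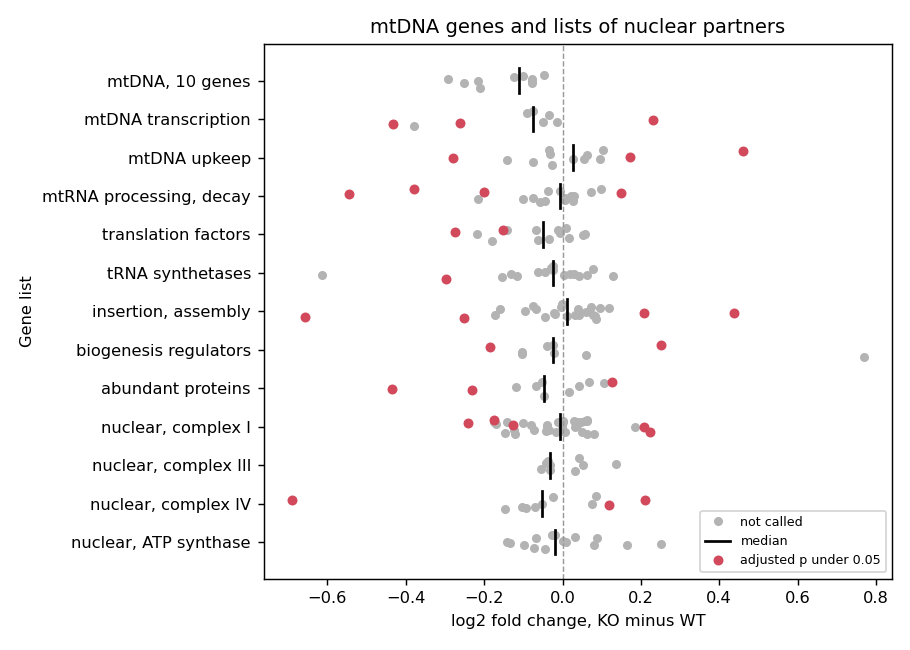
Log2 fold change (KO minus WT) of the 10 mtDNA genes and of each gene in 12 lists of nuclear partners; red points have an adjusted p under 0.05 and black bars mark list medians. The 10 mtDNA genes lie between -0.29 and -0.05 without a call, and the called partners lie on both sides of 0, from Ndufa4 at -0.69 to Polg2 at 0.46.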

How the data were processed

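Bulk RNA-seq libraries of splenic CD4+CD25+ Tregs (3 WT, 3 KO) were used, grouped by the sample labels, and the text names each library by group and replicate. Libraries were prepared with the TruSeq RNA kit. The authors deposited these libraries as 1 table of raw, unscaled counts with gene symbols as row names. The submitters' processing notes name HISAT2, DESeq2 and mm10. The tool behind these counts, its annotation and the use of strand are not given in the sources used here. For bulk libraries of Foxp3Cre mice, the methods of the study name HISAT2 with 1 alignment reported per read and StringTie, and whether the same steps made this table is not stated. Of 32285 rows, 40 repeat a symbol, and of those the row with the largest sum was used under that symbol.

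Analyses were run in R 4.3.3. Counts were tested with the quasi-likelihood test of edgeR 4.0.16 (TMM scaling, filterByExpr, robust dispersion, newer method), with Benjamini-Hochberg adjustment over 17307 genes and a call at an adjusted p under 0.05. TMM factors lay between 0.987 and 1.014, and CPM use the scaled library sizes. The SE of a log2 fold change was taken as its size over the square root of F. Shares of counts were compared by two-sided exact permutation tests. DESeq2 1.42.0, limma-voom (limma 3.58.1), other scalings and filters, removal of a trend on GC content, a replicate block, the study's cutoffs (1.5-fold, P under 0.05, adjusted P under 0.1) and leaving out each library were alternatives.

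Gene positions and sequences come from GENCODE M21 (GRCm38), which matched 97.5% of symbols. Only annotated transcripts, not the whole genome, were searched for shared stretches. The 10 genes and the lists of partners and markers were chosen with earlier results of these data known. Named genes were Zfp335, the mtDNA protein genes, Polrmt, Tfam, Tfb2m, the 3 genes of each partner list with the smallest p, and the 3 nuclear genes (average log2 CPM of at least 1) with the profile most like that of the 10 genes. Atp5l and the cell type markers are named outside this rule. The labels do not say that replicates came from separate animals, so p-values measure the spread between these libraries. The depth was between 133283969 and 209041812 counts. No sample was left out.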

Additional observations from a re-analysis of the deposited data

How the results depend on the processing

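Each of the 10 genes was recomputed under 20 alternatives, and 195 of these 200 values were below 0 and 7 were called. The sign alone hides a change in size, since all 10 values moved nearer to 0 with the GC trend removed. There mt-Nd2 stood at -0.00035, mt-Nd3 at -0.0043, mt-Nd5 at -0.010 and mt-Cytb at -0.026, with mt-Nd4 furthest from 0 at -0.21. Values turned positive, with no call, for mt-Nd1 with the GC trend removed (0.0200), with the GC trend removed together with the replicate block (0.0213) and without WT replicate 3 (0.0355, against -0.129 without WT replicate 1), and for mt-Nd3 with the GC trend removed together with the replicate block (0.0019) and without WT replicate 3 (0.0618, against -0.261 without WT replicate 1). The number of the 10 genes called ranged from 0 to 6 when each library was left out, and 6 were called without WT replicate 1 alone. With the replicate number as a block, 1 was called (mt-Co1 at -0.12, adjusted p = 0.0374) and over all genes 4227. The block is given here only, since deviations of libraries with the same number had correlations of 0.052, -0.0099 and -0.027 over 11078 genes and the numbers were not taken as pairs. The cause of these changes was not tested. Over all genes, 4170 calls became 2740 to 4996 when a library was left out, lowest without WT replicate 2, and 1203 (446 higher, 757 lower) with the cutoffs of the study, under which 0 of the 10 genes were called. Partner calls ranged from 17 to 57 when a library was left out, and the number of the 10 genes whose shares separated ranged from 3 to 9, where 32.2% to 54.6% of all genes separated in the same sets of libraries. Most of all genes lie outside the sum of the 10, so these percentages are no exact counterpart. The difference in the summed share of the 10 genes moved by less than the SD in WT under every alternative run. That SD (0.25 points) was about as large as the difference itself (-0.25 points), so this margin is wide. With 3 libraries per group and WT CVs up to 23.0%, small differences could not be resolved for mt-Nd3, mt-Atp6, mt-Co3, mt-Co2 and mt-Nd4.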
